A study of Homo sapiens with 16 samples.

Results

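Replication-dependent histone genes, which encode the histones that package newly copied DNA, were followed in PC3 cells and in tumors grown from them, labelled DDX4-null or control for the RNA helicase DDX4. The members were the genes whose current symbols are H1-1 to H1-6 or begin with H2AC, H2BC, H3C or H4C followed by a number, with pseudogenes left out. The deposited table held 33 of them among its 20356 gene identifiers. They comprised 6 genes for the linker histone H1, 8 for H2A, 10 for H2B, 5 for H3 and 4 for H4. Of these, 23 lie on chromosome 6, 9 on chromosome 1 and 1, H4C16, on chromosome 12. The reference list of names holds 69 symbols of this pattern, and 1377 identifiers in the table had no current symbol, so members counted under such identifiers are not analysed here.

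PC3 is a human prostate cancer cell line, and DDX4, also called VASA, is an RNA helicase of germ cells. The series asked what DDX4 does for the cancer-promoting properties of PC3 cells. RNA was sequenced from 4 groups of 4 libraries each, namely DDX4-null xenograft tumors, control xenograft tumors, DDX4-null cells in monolayer culture and control cells in monolayer culture. The labels name no other allele, agent, dose or time for any group, and the design text calls the controls wild type. The means of DDX4 disruption, whether the DDX4-null line is 1 clone, and the xenograft host with its age are not named there. No label says whether the 4 libraries within a group are separate cultures or separate tumors, so each p-value rests on spread between libraries that could be technical.

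In a nucleosome, DNA is wrapped around histones H2A, H2B, H3 and H4, and the linker histone H1 binds where the DNA enters and leaves. The replication-dependent genes lie in clusters, are transcribed in S phase with the coactivator NPAT, and have no introns in their main form. Most of their mRNA ends in a stem-loop in place of a poly(A) tail. The stem-loop binding protein SLBP and the U7 snRNP direct the cut that makes this end, and the mRNA is degraded when DNA synthesis stops. Some members also give spliced or longer mRNA with a poly(A) tail, a form known from differentiated and slowly dividing cells. The libraries were made with a stranded mRNA kit that selects RNA by its poly(A) tail, so the counts weigh polyadenylated histone RNA over the stem-loop form, and how far each form entered the libraries was not tested.

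The stem-loop is the feature that sets these mRNAs apart, so its sequence is shown for the 9 members that carried it in the gene models and had a mean of at least 1 CPM (counts scaled to a common library size) in at least 1 group. The motif searched, on the transcript strand of the GENCODE release 29 transcripts, was GGNNCTNTTNAGNGCC, where N is any base. Capitals mark the match, with 5 bases on either side. Each line is DNA, 5′ to 3′, on the coding strand.
H2AC6: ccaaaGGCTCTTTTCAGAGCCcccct
H2AC11: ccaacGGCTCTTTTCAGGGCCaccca
H2AC13: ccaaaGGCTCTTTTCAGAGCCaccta
H2AC25: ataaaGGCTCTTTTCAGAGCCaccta
H2BC4: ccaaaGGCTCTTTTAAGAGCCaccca
H2BC5: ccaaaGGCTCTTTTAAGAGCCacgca
H2BC15: acaacGGCTCTTTTCAGAGCCaccta
H4C8: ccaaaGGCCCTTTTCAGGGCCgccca
H4C16: caaaaGGCCCTTTTCAGGGCCcccaa
The motif was found in 16 of the 33 members and in 49 of 19702 protein-coding genes of that release, or 0.249%. All 9 members shown have at least 1 annotated transcript that runs more than 10 bases beyond the motif. The longest such run was 1761 bases in H2AC11, 1655 in H4C8, 1510 in H4C16 and 1128 in H2AC6, against 390 in H2AC25, 377 in H2BC15, 116 in H2BC4, and 39 in both H2BC5 and H2AC13. H1-2, H1-3, H1-4, H2BC11, H2BC12 and H3C4 also reached 1 CPM and had no match in these gene models. Some of these models are short, with 381 exon bases for H2BC12 and 411 for H3C4. A model that stops before the stem-loop gives no match, so a missing match does not show that the mRNA lacks one.

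The library totals ran between 12204254 and 25443952 counts, so that 3 counts, taken here as the floor of detection, corresponded to 0.118 to 0.246 CPM. DDX4 had between 0 and 5 counts in each library, with sums of 11 in DDX4-null tumors, 13 in control tumors, 7 in DDX4-null cells and 10 in control cells. These counts do not tell the labels apart, since the exact two-sided permutation p was 0.971 between the tumors and 0.543 between the cells, with 0.0286 the smallest that 4 against 4 libraries allow. All 7 markers of PC3 and epithelial cells had counts in every group. Of 6 prostate luminal markers, 3 had counts in DDX4-null tumors, 5 in control tumors, 4 in DDX4-null cells and 4 in control cells. KLK2, a member of that list, had none in any group. Summed CPM of 10 fibroblast markers was 1680 to 11010 in DDX4-null tumors, 1403 to 1906 in control tumors, 45.2 to 58.2 in DDX4-null cells and 24.1 to 31.7 in control cells. The highest fibroblast sum was in DDX4-null tumor 1, which also had the highest leukocyte sum, at 44.0 CPM over 8 markers. The same library had the highest sum of the PC3 and epithelial markers, at 6215 CPM, and of the prostate luminal markers, at 37.8 CPM. The highest endothelial sum, 56.1 CPM, was in DDX4-null tumor 3. The table counts human genes, how reads of the host were handled is not stated, and the part of host RNA in the tumor values was not tested.

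Histone mRNA made up a small share of each library, and 4 members carried most of it. The 33 members together took 0.0331% to 0.0740% of all counts. No count was recorded in any library for 8 members, namely H1-5, H2AC1, H2AC7, H2AC20, H2AC21, H3C13, H3C14 and H3C15. All 50-base stretches of H3C14 and H3C15 also occur in other histone transcripts, as do 80.4% of those of H3C13 and 30.5% of those of H2AC20. How reads shared between genes were counted is not stated, so a missing count does not show absent RNA. Among the 25 with counts, 15 averaged at least 1 CPM in some group, on library sizes scaled by TMM, and the highest group mean among the other 18 members was 0.788 CPM. H2AC6, H2BC12, H1-2 and H4C8 together gave 82.3% of the summed CPM in DDX4-null tumors, 81.5% in control tumors, 79.7% in DDX4-null cells and 82.1% in control cells, as group means. CPM is not divided by transcript length, so these shares describe counts and not molecules. Among the 15 members at 1 CPM or more, 7 have spliced transcripts in the gene models, against 2 of the other 18.

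The summed histone CPM separated the control cells from every other group. The sum was 358, 479.5, 489 and 405 CPM in DDX4-null tumors, 379.7, 376, 411 and 387 in control tumors, 358, 403, 338 and 404 in DDX4-null cells and 678, 615, 602 and 814 in control cells. All 4 control cell libraries lay above all 12 others. The group means were 433 ± 62.5, 388 ± 15.5, 376 ± 33.4 and 677 ± 97.2 CPM in the same order (SD, n = 4 each). DDX4-null cells thus held 0.555 times the mean of control cells with no overlap, and DDX4-null tumors 1.11 times the mean of control tumors with overlap. A sum over chosen members was given no test. In bulk libraries, fewer cells of a type and less RNA per cell cannot be told apart.

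The mix of classes also differed between groups, given here as values with no test. H1 transcripts made up 14.8 ± 1.71% of the histone sum in DDX4-null tumors, 20.2 ± 2.46% in control tumors, 22.8 ± 3.36% in DDX4-null cells and 29.4 ± 1.25% in control cells (SD, n = 4 each). H4 transcripts made up 11.3 ± 1.72%, 9.57 ± 1.07%, 7.21 ± 0.964% and 9.59 ± 0.781% in the same order. The H1 share did not overlap between DDX4-null and control tumors and overlapped between DDX4-null and control cells. The H4 share showed the other pattern, with overlap between the tumors and none between the cells, and so did the H2A, H2B and H3 shares. A share also moves when the other classes change. As CPM, H1 averaged 64.3 in DDX4-null tumors and 78.2 in control tumors, with overlap. H2A averaged 153 CPM in DDX4-null tumors and 120 CPM in control tumors. These groups almost touched, with the lowest DDX4-null tumor at 131.9 CPM and the highest control tumor at 131.8 CPM.

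**Figure D1:**
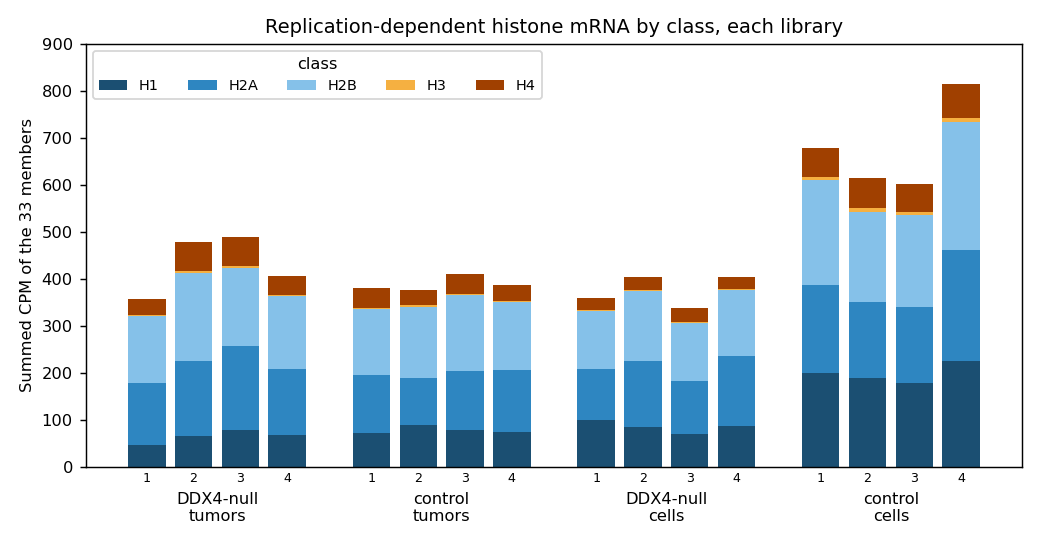
Stacked bars give the summed CPM of the 33 members in each of the 16 libraries, split into H1, H2A, H2B, H3 and H4, with libraries 1 to 4 of each group side by side. The 4 control cell libraries reach between 602 and 814 CPM, above all 12 others, and H3 is a thin band in every bar.

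In monolayer culture, most histone mRNAs that could be tested were lower in DDX4-null than in control cells. Of the 33 members, 16 passed the filter on low counts, 13 of them fell and 0 rose by edgeR's quasi-likelihood test with Benjamini-Hochberg adjustment over all 13006 genes tested at a threshold of 0.05. Over all genes tested, 32.3% were lower and 35.0% higher, or 67.3% in either direction. The median log2 change was -0.71 over the 16 members tested and 0.02 over all genes. An unadjusted p under 0.05 gave 13 lower and 0 higher, and DESeq2 called 13 lower and 0 higher. Of the 15 members at 1 CPM or more, every H1, H3 and H4 gene fell, as did 3 of 4 H2A genes and 4 of 5 H2B genes. With and without a stem-loop match in the gene models, 8 of 9 and 5 of 6 members fell. This split follows the annotation and does not separate genes that have a stem-loop from genes that lack it.

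The linker histone genes had some of the lowest ratios. H1-2 (ENSG00000187837), a widely expressed somatic H1, had 98.0, 82.6, 69.5 and 85.8 CPM in DDX4-null cells, against 197, 183, 173 and 221 CPM in control cells. Every DDX4-null library lay well under every control library, and the log2 change was -1.20 (SE 0.11, edgeR adjusted p = 1.2e-08). H1-3, another somatic H1, had 0.752, 0.237, 0.607 and 0.278 CPM in DDX4-null cells, against 1.92, 2.80, 3.26 and 2.33 CPM in control cells. The groups did not overlap, although the levels are low, with 34 counts in all over the DDX4-null cell libraries. The log2 change was -2.47 (SE 0.31, edgeR adjusted p = 7.4e-07). H1-4, also a somatic H1, had 0.698, 0.887, 0.364 and 0.974 CPM in DDX4-null cells, against 1.19, 1.58, 1.93 and 1.36 CPM in control cells. These groups did not overlap either, with a log2 change of -1.03 (SE 0.28, edgeR adjusted p = 0.0032).

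Among the H2A genes, H2AC6 (ENSG00000180573), the member with the most counts, had 85.7, 116, 90.9 and 127 CPM in DDX4-null cells, against 166, 138, 136 and 212 CPM in control cells. The highest DDX4-null library stayed below the lowest control library, and the log2 change was -0.63 (SE 0.14, edgeR adjusted p = 0.00061). H2AC11 had 4.62, 4.14, 5.16 and 3.89 CPM in DDX4-null cells, against 7.15, 7.25, 7.68 and 5.24 CPM in control cells. Control cell library 4 was the lowest control and came close to DDX4-null library 3 without reaching it, and the log2 change was -0.62 (SE 0.16, edgeR adjusted p = 0.0018). H2AC13 had 1.503, 1.89, 1.46 and 2.23 CPM in DDX4-null cells, against 3.31, 3.73, 4.03 and 4.46 CPM in control cells. The groups lay far apart, with a log2 change of -1.12 (SE 0.19, edgeR adjusted p = 3.3e-05), but 62.3% of its 50-base stretches also occur in other histone transcripts, so its count is uncertain.

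H2AC25 was the H2A gene that did not follow the others. It encodes H2A from a small cluster on the long arm of chromosome 1, away from the main cluster, and had 16.5, 18.9, 13.9 and 14.1 CPM in DDX4-null cells, against 11.1, 13.4, 13.9 and 15.7 CPM in control cells. The groups overlapped, and the log2 change was 0.23 (SE 0.13, edgeR adjusted p = 0.134), with a 95% interval of -0.05 to 0.51. Centred on the median change of chromosome 1 genes, which was -0.11, its change was 0.34 (edgeR adjusted p = 0.0339) and was then called higher.

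Among the H2B genes, H2BC12 (ENSG00000197903), the H2B gene with the most counts, had 78.5, 97.6, 78.6 and 90.4 CPM in DDX4-null cells, against 144, 121, 117 and 178 CPM in control cells. All DDX4-null libraries lay below all controls, and the log2 change was -0.70 (SE 0.12, edgeR adjusted p = 5.7e-05), although 74.1% of its 50-base stretches occur in other histone transcripts, which makes its count uncertain. H2BC5 had 23.1, 26.3, 25.1 and 25.6 CPM in DDX4-null cells, against 40.6, 38.2, 41.3 and 45.8 CPM in control cells. Both groups were narrow and far apart, with a log2 change of -0.73 (SE 0.10, edgeR adjusted p = 3e-06). H2BC4 had 9.07, 10.5, 7.89 and 9.60 CPM in DDX4-null cells, against 20.7, 18.8, 20.4 and 28.2 CPM in control cells. It showed the strongest fall of the 5 H2B genes, with a log2 change of -1.25 (SE 0.14, edgeR adjusted p = 1.6e-07). H2BC15 had 5.05, 6.50, 5.34 and 6.40 CPM in DDX4-null cells, against 8.88, 7.10, 7.57 and 9.51 CPM in control cells. The groups did not overlap and the log2 change was -0.50 (SE 0.15, edgeR adjusted p = 0.0047), but the gene overlaps H2AC15, H2AC16 and the pseudogene H2BC16P in the annotation, and the strand setting of the counting is unknown. H2BC11, the remaining H2B gene at this level, had 6.55, 6.92, 5.83 and 7.28 CPM in DDX4-null cells, against 6.96, 7.03, 8.34 and 9.83 CPM in control cells. Its groups overlapped, and its log2 change of -0.28 (SE 0.14, edgeR adjusted p = 0.0992) was not called, while centring on chromosome 6 gave -0.37 (edgeR adjusted p = 0.0332).

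For the remaining core histones, H3C4, which encodes canonical H3, had 2.63, 1.77, 2.43 and 2.46 CPM in DDX4-null cells, against 5.10, 6.46, 4.25 and 7.18 CPM in control cells. The groups were apart, and the log2 change was -1.29 (SE 0.19, edgeR adjusted p = 7e-06). H4C8 (ENSG00000158406), the H4 gene with the most counts, had 22.1, 26.5, 26.4 and 23.8 CPM in DDX4-null cells, against 58.1, 61.4, 56.0 and 68.3 CPM in control cells. It had the smallest p of all members in this comparison, with a log2 change of -1.30 (SE 0.11, edgeR adjusted p = 1.9e-09). H4C16, the H4 gene on chromosome 12, had 1.83, 0.650, 2.55 and 2.09 CPM in DDX4-null cells, against 3.11, 2.73, 2.98 and 2.59 CPM in control cells. DDX4-null library 3 lay just under the lowest control library, the log2 change was -0.67 (SE 0.26, edgeR adjusted p = 0.0286), and its call was kept in 4 of 8 fits that left out 1 library and lost on centring, at -0.56 (edgeR adjusted p = 0.0685). The other 12 falls kept their call in 8 of 8 such fits.

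**Figure D2:**
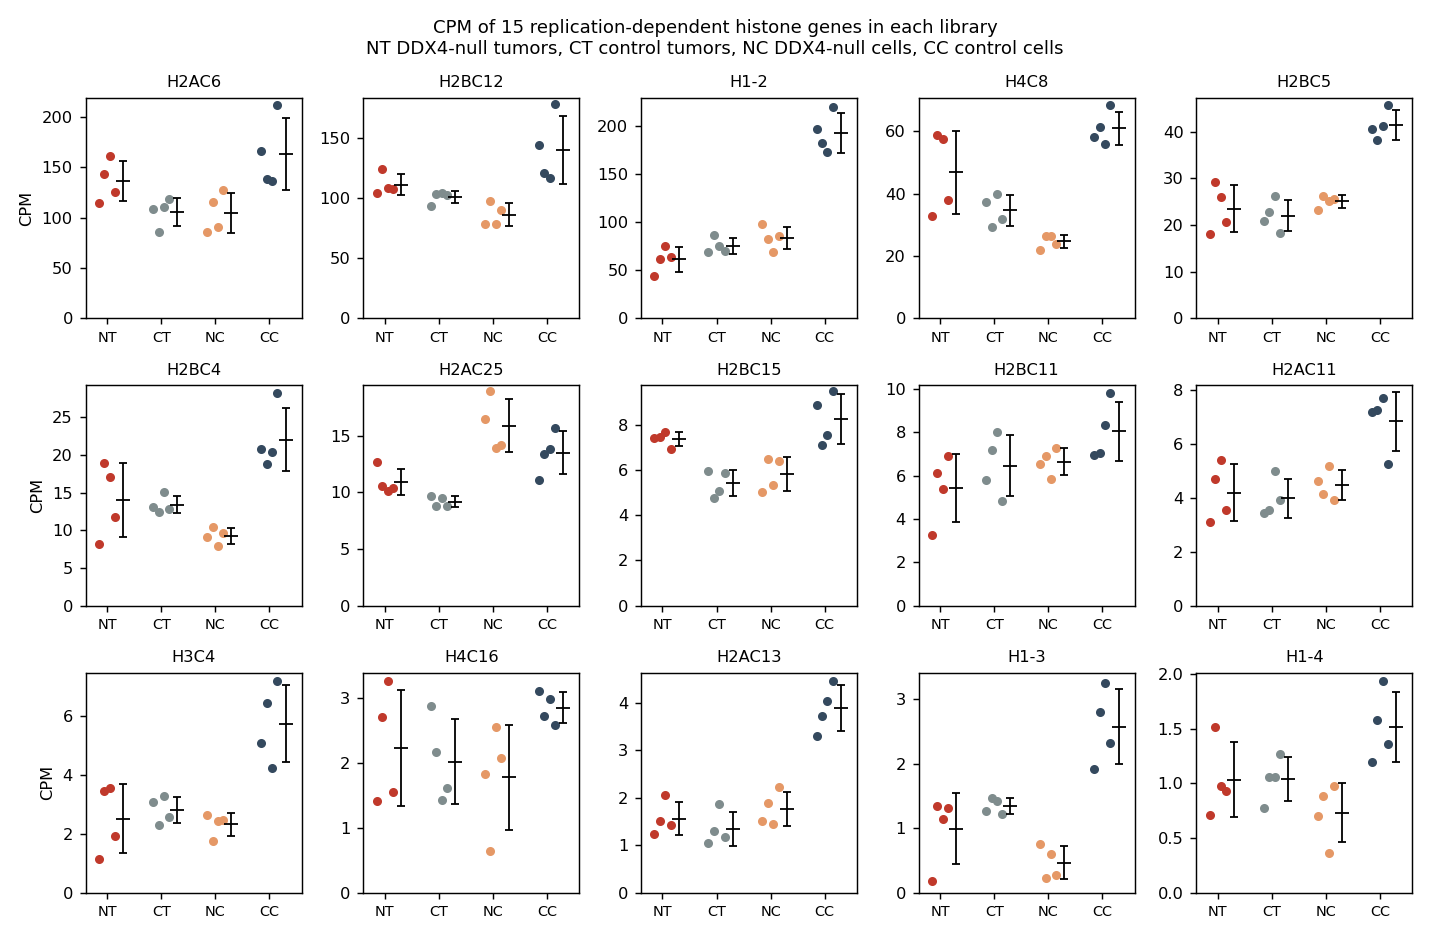
Each panel shows 1 of the 15 members at 1 CPM or more, with CPM on a linear axis from 0. Points are the 4 libraries of DDX4-null tumors (NT), control tumors (CT), DDX4-null cells (NC) and control cells (CC), and the bar beside them is the mean with its SD. Control cells are the highest group in 14 of the panels, and H2AC25 is the exception, where DDX4-null cells average 15.9 CPM and control cells 13.5 CPM.

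Most genes around the members were also called in culture, as were most genes of the whole table. Between the first and last member on chromosome 6, 12 other genes were tested, of which 3 rose and 7 fell in DDX4-null cells. Over all genes tested, 35.0% were higher and 32.3% lower, or 67.3% in either direction. The median log2 change of the 12 neighbours was -0.33. The 3 with the smallest p were BTN3A1 and BTN3A3, members of the butyrophilin family, and TRIM38, a tripartite motif protein, with log2 changes of -1.33, -1.27 and -0.53 and edgeR adjusted p of 2e-09, 2.2e-08 and 7.1e-05. Over all tested genes of chromosome 6 the median log2 change was 0.09, above 0, so centring on it moved each chromosome 6 member further down. With each chromosome centred on its own median, 13 members were again called lower, with H2BC11 gained and H4C16 lost. In tumors, 0 of the 12 neighbours were called by edgeR, against 2.09% of all genes tested. Of these neighbours, 1 had an unadjusted p under 0.05 and DESeq2 called 0. Local copy number was not measured, and its part in these values was not tested.

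In xenograft tumors, no histone gene was called different between DDX4-null and control. Of the 33 members, 17 passed the filter, and edgeR called 0 of them in either direction, where 0.981% of the 12942 genes tested were higher and 1.10% lower. At an unadjusted p under 0.05, 3 members were higher and 0 lower, and DESeq2 called 0. The median log2 change was 0.14 over the members tested and -0.001 over all genes. A p that misses the threshold does not show that the levels were equal, and the intervals below give the range these libraries allow.

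H2BC15 and H2AC25 were the members at 1 CPM or more whose tumor groups did not overlap, and neither was called. How often groups were free of overlap over all genes was not counted, so this separation is given as a description only. H2BC15 had 7.43, 7.46, 7.67 and 6.91 CPM in DDX4-null tumors, against 5.96, 4.77, 5.08 and 5.88 CPM in control tumors. Every DDX4-null tumor was above every control tumor, with a log2 change of 0.44 (SE 0.14, edgeR adjusted p = 0.121) and a 95% interval of 0.13 to 0.76. H2AC25 had 12.7, 10.5, 10.1 and 10.3 CPM in DDX4-null tumors, against 9.67, 8.77, 9.46 and 8.82 CPM in control tumors. DDX4-null tumor 1 was the highest, and the log2 change was 0.24 (SE 0.12, edgeR adjusted p = 0.28), with an interval of -0.03 to 0.51.

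The members with the most counts were spread more widely in DDX4-null tumors. H2AC6 had 115, 143, 161 and 126 CPM in DDX4-null tumors, against 108, 85.9, 110.3 and 118 CPM in control tumors. The groups overlapped through DDX4-null tumor 1 and control tumor 4, and the log2 change was 0.37 (SE 0.12, edgeR adjusted p = 0.133), with an interval of 0.10 to 0.64. H2BC12 had 104, 124, 108 and 108 CPM in DDX4-null tumors, against 93.5, 103, 105 and 102 CPM in control tumors. The groups just met, and the log2 change was 0.14 (SE 0.08, edgeR adjusted p = 0.352), with an interval of -0.04 to 0.32. H1-2 had 44.0, 62.2, 75.8 and 64.0 CPM in DDX4-null tumors, against 68.9, 86.7, 75.1 and 70.6 CPM in control tumors. DDX4-null tumor 1 was the lowest and DDX4-null tumor 3 was among the highest, and the log2 change was -0.29 (SE 0.15, edgeR adjusted p = 0.269), with an interval of -0.61 to 0.03. H4C8 had 32.7, 58.8, 57.7 and 37.9 CPM in DDX4-null tumors, against 37.4, 29.4, 39.9 and 31.8 CPM in control tumors. DDX4-null tumors 2 and 3 stood above all controls while tumors 1 and 4 lay among them, and the log2 change was 0.44 (SE 0.18, edgeR adjusted p = 0.203), with an interval of 0.04 to 0.84.

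The other members that had fallen in culture overlapped between the tumor groups. H1-3 had 0.177, 1.35, 1.15 and 1.31 CPM in DDX4-null tumors, against 1.26, 1.47, 1.42 and 1.22 CPM in control tumors, and DDX4-null tumor 1 stood far below the other 7. Its value of 0.177 CPM lies under the floor of detection, which is 0.246 CPM in this library. H1-4 had 0.708, 1.51, 0.973 and 0.934 CPM in DDX4-null tumors, against 0.771, 1.06, 1.06 and 1.27 CPM in control tumors, with the highest and the lowest value both in DDX4-null tumors. H2BC4 had 8.22, 19.0, 17.1 and 11.8 CPM in DDX4-null tumors, against 13.1, 12.5, 15.01 and 12.9 CPM in control tumors, where the DDX4-null tumors spanned the whole range of the controls. These are 3 genes with log2 changes of -0.38, 0.01 and 0.08, none of them called.

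H2BC5 had 18.0, 29.3, 26.0 and 20.7 CPM in DDX4-null tumors, against 20.9, 22.7, 26.1 and 18.3 CPM in control tumors. H2AC11 had 3.10, 4.70, 5.38 and 3.55 CPM in DDX4-null tumors, against 3.43, 3.53, 5.002 and 3.90 CPM in control tumors. H2AC13 had 1.24, 1.51, 2.06 and 1.43 CPM in DDX4-null tumors, against 1.05, 1.29, 1.86 and 1.17 CPM in control tumors. The groups overlapped in all 3, and the log2 changes were 0.10, 0.08 and 0.20. H3C4 had 1.15, 3.46, 3.55 and 1.93 CPM in DDX4-null tumors, against 3.08, 2.29, 3.29 and 2.58 CPM in control tumors. H4C16 had 1.42, 2.703, 3.26 and 1.56 CPM in DDX4-null tumors, against 2.87, 2.18, 1.42 and 1.62 CPM in control tumors. H2BC11 had 3.27, 6.11, 5.38 and 6.91 CPM in DDX4-null tumors, against 5.82, 7.18, 7.996 and 4.81 CPM in control tumors. Here too the groups overlapped, with log2 changes of -0.13, 0.19 and -0.25.

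DDX4-null tumor 1, the library with 11010 CPM of fibroblast markers, had the lowest CPM of all 8 tumors for H1-2, H1-3, H1-4, H2BC4, H2BC5, H2BC11, H2AC11, H3C4 and H4C16. Its histone sum of 358 CPM was also the lowest tumor value. Without this library, edgeR again called 0 members at 1 CPM or more, and the changes were 0.58 (edgeR adjusted p = 0.07) for H4C8, 0.44 (edgeR adjusted p = 0.076) for H2AC6 and -0.16 (edgeR adjusted p = 0.466) for H1-2. The change of H3C4 was 0.09 without this library, against -0.13 with it. The part of the fibroblast signal in these values was not tested.

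**Figure D3:**
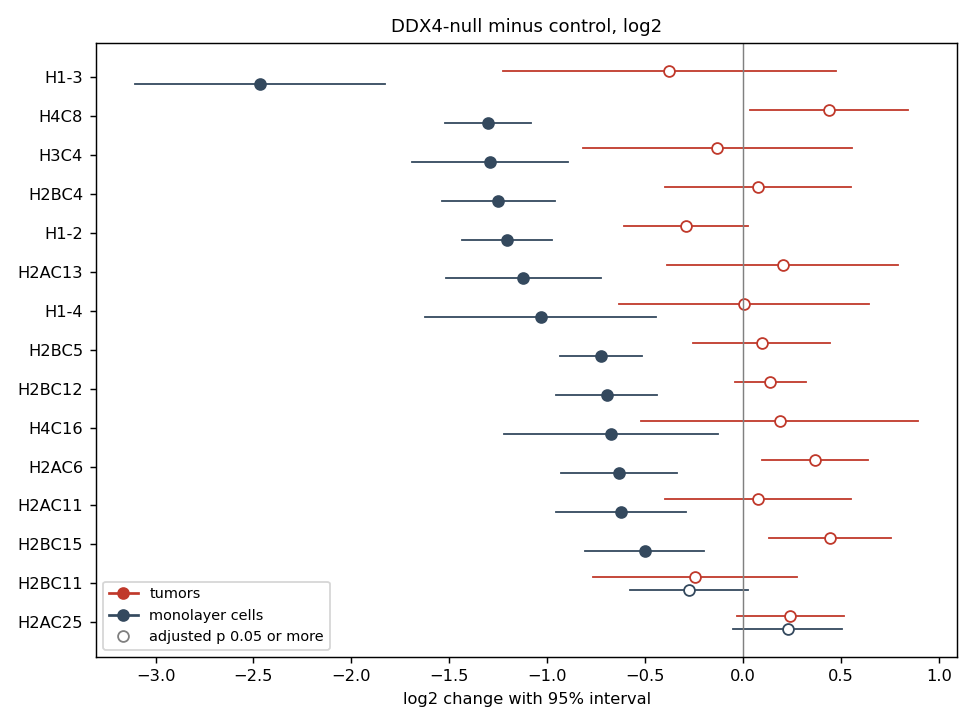
Log2 change of DDX4-null minus control with its 95% interval for 15 members, in tumors (red) and in monolayer cells (dark blue). Filled points passed an edgeR adjusted p of 0.05, which 13 members did in cells and 0 in tumors. H1-3 lies farthest to the left in cells, at -2.47.

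The genotype effects in tumors and in culture were then compared directly, as the interaction in a model of all 16 libraries. Of 19 members that passed the filter, 14 had a higher DDX4-null effect in tumors than in culture and 0 a lower one, against 26.0% higher and 26.8% lower, 52.8% in all, over the 13603 genes tested. Unadjusted p-values under 0.05 gave 14 higher and 0 lower, and DESeq2 called 13 and 0. The difference was largest in named members for H1-3, at 2.09 (SE 0.54, edgeR adjusted p = 0.0027), and H4C8, at 1.74 (SE 0.22, edgeR adjusted p = 1.5e-06). It was 1.00 (SE 0.22, edgeR adjusted p = 0.00061) for H2AC6, 0.84 (SE 0.16, edgeR adjusted p = 0.00025) for H2BC12 and 0.91 (SE 0.19, edgeR adjusted p = 0.00048) for H1-2. Of the 13 members that fell in DDX4-null cells, 12 had such a call, and H4C16 did not, at 0.88 (SE 0.46, edgeR adjusted p = 0.117). The interaction contains the culture comparison that picked these 13, so positive calls were likely in advance and their count is no separate result. H2AC25 and H2BC11 had differences of 0.01 and 0.03, with intervals of -0.37 to 0.39 and -0.55 to 0.61. Below 1 CPM, H2BC26, an H2B gene of chromosome 1, and H1-6, the testis linker histone, were the other members called. The calls of H2AC11 and H1-4 were kept in 7 and 6 of 16 fits that left out 1 library.

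Control tumors had less histone mRNA than the control cells they can be set against. Of 18 members tested, 13 fell in control tumors and 0 rose by edgeR, against 31.0% lower and 33.9% higher over 12858 genes, 64.9% in all. Unadjusted p under 0.05 gave 14 lower and 0 higher, and DESeq2 12 lower and 0 higher. The median log2 change was -0.61 over the members tested and 0.02 over all genes. H1-2 averaged 75.3 ± 7.996 CPM in control tumors and 193 ± 20.7 CPM in control cells (SD, n = 4 each), with a log2 change of -1.35 (SE 0.10, edgeR adjusted p = 4.4e-09). H2AC13 averaged 1.34 ± 0.360 CPM in control tumors and 3.88 ± 0.485 CPM in control cells, with a log2 change of -1.48 (SE 0.21, edgeR adjusted p = 1.1e-05). Both pairs were free of overlap. H4C8 averaged 34.6 ± 4.85 CPM in control tumors and 60.9 ± 5.39 CPM in control cells, with a log2 change of -0.81 (SE 0.11, edgeR adjusted p = 4.8e-06). H2AC25, which was not called lower in DDX4-null cells, averaged 9.18 ± 0.455 CPM in control tumors and 13.5 ± 1.92 CPM in control cells, with a log2 change of -0.55 (SE 0.13, edgeR adjusted p = 0.00099). H1-4 and H2BC11 were the members at 1 CPM or more that were not called, and H4C16 kept its call in 2 of 8 fits without 1 library.

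The comparison of control tumors with control cells and that of DDX4-null with control cells share the 4 control cell libraries, so their values are set side by side without a test of likeness. In that order, the log2 changes were -1.35 and -1.20 for H1-2, -0.62 and -0.63 for H2AC6, -0.47 and -0.70 for H2BC12, and -0.81 and -1.30 for H4C8. They were -0.93 and -2.47 for H1-3. Both comparisons called 12 members lower, H1-4 being called in culture alone and H2AC25 in the tumors alone, a contrast in calls that was not itself tested. How many of all genes were lower in both was not counted, and shared control cells make joint calls likely. The 12 are therefore given as a description only.

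DDX4-null tumors and DDX4-null cells had similar histone sums, and the members went in both directions. Of 16 members tested, 5 rose and 3 fell in DDX4-null tumors, against 34.6% higher and 35.3% lower over 13277 genes, 69.8% in all. The median log2 change was 0.26 over the members tested and -0.003 over all genes. H4C8 averaged 46.8 ± 13.4 CPM in DDX4-null tumors and 24.7 ± 2.14 CPM in DDX4-null cells, with no overlap and a log2 change of 0.94 (SE 0.18, edgeR adjusted p = 0.00029). H2BC12 averaged 111 ± 8.93 CPM in DDX4-null tumors and 86.3 ± 9.36 CPM in DDX4-null cells, with a log2 change of 0.38 (SE 0.10, edgeR adjusted p = 0.0049). H2AC25 went the other way, at 10.9 ± 1.18 CPM in DDX4-null tumors and 15.9 ± 2.35 CPM in DDX4-null cells, with a log2 change of -0.53 (SE 0.14, edgeR adjusted p = 0.0037). These 3 kept their call in 8 of 8 fits that left out 1 library.

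The other 5 calls between DDX4-null tumors and cells rested on fewer of those fits. H1-2 fell, with a log2 change of -0.43 (SE 0.15, edgeR adjusted p = 0.0205), kept in 7 of 8 fits and lost on centring by chromosome, at -0.25 (edgeR adjusted p = 0.163). H2BC4 and H2AC6 rose by 0.63 and 0.39 on the log2 scale, each kept in 4 of 8. H1-3 rose by 1.16, kept in 2 of 8, and H2BC13, an H2B gene below 1 CPM, had a change of -1.09, kept in 3 of 8. Without DDX4-null tumor 1, the changes were 1.46 (edgeR adjusted p = 0.00151) for H1-3, 0.81 (edgeR adjusted p = 0.000159) for H2BC4 and 0.47 (edgeR adjusted p = 0.00355) for H2AC6.

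**Figure D4:**
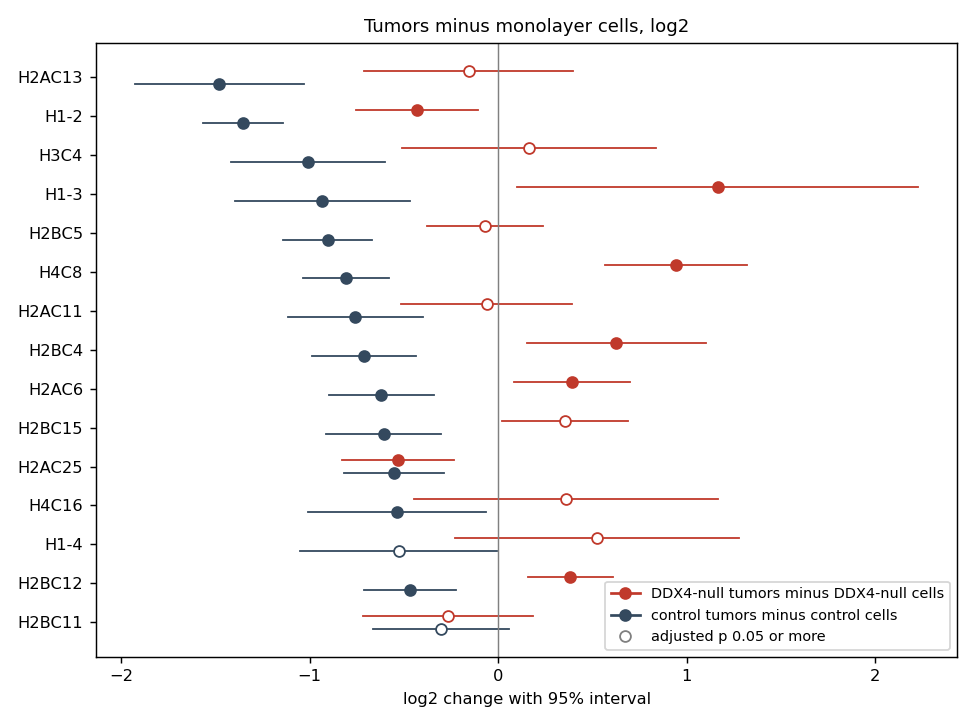
Log2 change of tumors minus monolayer cells with its 95% interval for 15 members, for the DDX4-null pair of groups (red) and the control pair (dark blue). Filled points passed an edgeR adjusted p of 0.05. In the control pair all 15 points lie below 0, and in the DDX4-null pair H4C8 is at 0.94 and H1-2 at -0.43.

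Histone transcripts are usually made when S phase genes are on, so the S phase list was set beside them. The list of 29 genes, which holds replication licensing and DNA synthesis genes, had 26 higher and 1 lower in DDX4-null cells. Over all genes tested, 35.0% were higher and 32.3% lower. The median log2 change was 1.10 over the list, against 0.02 over all genes tested. The same counts, 26 higher and 1 lower, were found in control tumors against control cells, where 33.9% of all genes tested were higher and 31.0% lower. CDC6, a licensing factor, was the gene lower in both comparisons and was chosen for naming after its values were seen. MCM3, a subunit of the replicative helicase, averaged 161 ± 13.0 CPM in DDX4-null cells and 41.4 ± 3.85 CPM in control cells, with a log2 change of 1.96 (SE 0.10, edgeR adjusted p = 2.6e-12). PRIM1, the primase subunit, averaged 26.3 ± 2.79 CPM in DDX4-null cells and 5.49 ± 0.518 CPM in control cells, with a log2 change of 2.25 (SE 0.13, edgeR adjusted p = 1.2e-11). RRM2, which makes deoxyribonucleotides, and GINS4, of the GINS complex, changed by 1.52 and 2.10 on the log2 scale, both higher.

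Mitosis genes went the same way as the S phase genes in culture. All 8 genes of the mitosis list rose in DDX4-null cells, with a median log2 change of 1.39, where 35.0% of all genes tested were higher and 32.3% lower. Those named here were chosen by smallest p after their values were seen, among them MKI67, a proliferation antigen, which averaged 225 ± 15.3 CPM in DDX4-null cells and 74.8 ± 3.34 CPM in control cells, with a log2 change of 1.59 (SE 0.09, edgeR adjusted p = 2.1e-11). TOP2A, which untangles DNA, BUB1B, of the spindle checkpoint, and TPX2, a spindle factor, changed by 1.64, 1.54 and 1.38 on the log2 scale. In tumors, edgeR called 0 S phase genes higher and 1 lower, where 0.981% of all genes tested were higher and 1.10% lower. The gene called was E2F1, an activator of S phase genes, with 26.3 ± 3.37 CPM in DDX4-null tumors and 42.2 ± 5.47 CPM in control tumors. Its log2 change was -0.69 (SE 0.12, edgeR adjusted p = 0.0208). Unadjusted p under 0.05 gave 0 higher and 20 lower, and DESeq2 0 and 9, and the median log2 change of the S phase list was -0.30. The mitosis genes TPX2 and AURKA were lower in DDX4-null tumors, at -0.56 and -0.44 (edgeR adjusted p = 0.0329 and 0.037), the kinase AURKA named after its values were seen. The calls of E2F1, TPX2 and AURKA in tumors were kept in 5, 4 and 2 of 8 fits that left out 1 library. All 3 were lost without control tumor 2, control tumor 3 or DDX4-null tumor 2, with edgeR adjusted p of 0.053 to 0.0888 for E2F1, 0.0578 to 0.121 for TPX2 and 0.0673 to 0.144 for AURKA. TPX2 was also lost without DDX4-null tumor 3 (edgeR adjusted p = 0.0718), and AURKA without DDX4-null tumor 1, 3 or 4 (edgeR adjusted p = 0.0533, 0.0883 and 0.0596). All 3 calls were lost on centring by chromosome, at edgeR adjusted p of 0.0666 for E2F1, 0.114 for TPX2 and 0.168 for AURKA.

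Set against the S phase sum, the control cells again stood alone. Summed CPM of the S phase list was 1641, 1381, 1408 and 1581 in DDX4-null tumors, 1594, 1822, 1946 and 1949 in control tumors, 1597, 1555, 1450.0 and 1590.0 in DDX4-null cells and 872, 801, 799 and 899 in control cells. The histone sum per unit of S phase sum was 0.292 ± 0.0654 in DDX4-null tumors, 0.214 ± 0.0173 in control tumors, 0.243 ± 0.0169 in DDX4-null cells and 0.801 ± 0.0702 in control cells (SD, n = 4 each). Control cells had the lowest S phase sums and the highest histone sums of all libraries. The phases of the cells were not measured, and neither sum is a count of dividing cells.

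**Figure D5:**
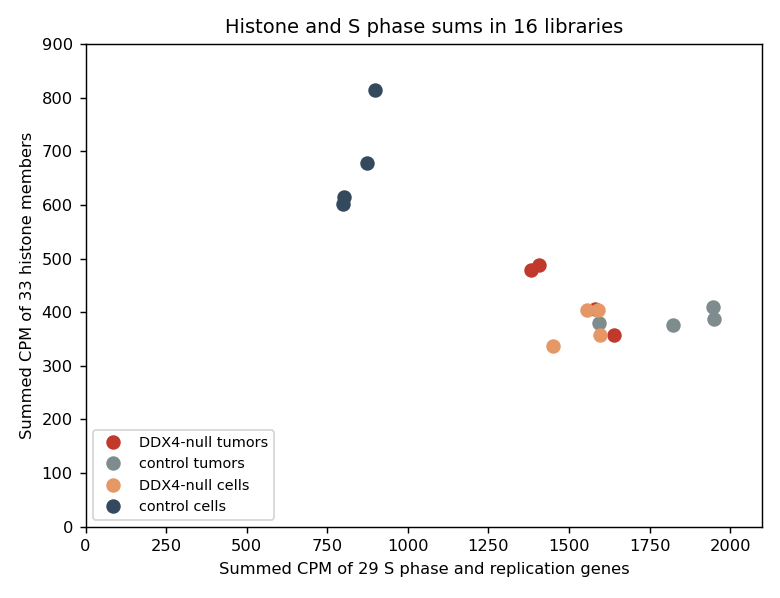
Each point is 1 of the 16 libraries, with the summed CPM of 29 S phase and replication genes on the horizontal axis and the summed CPM of the 33 histone members on the vertical axis, both linear from 0. The 4 control cell libraries sit at the upper left, with S phase sums of 799 to 899 CPM, and the 12 others lie at 1381 CPM or more with histone sums of 489 CPM or less.

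Factors that transcribe histone genes or process their mRNA were called at about the share of all genes. Of 22 tested, 8 rose and 6 fell in DDX4-null cells, where 35.0% of all genes were higher and 32.3% lower, and the median log2 change was 0.19 in cells and -0.07 in tumors. ERI1, the exonuclease that trims and degrades histone mRNA ends, averaged 17.1 ± 1.30 CPM in DDX4-null cells and 8.22 ± 0.732 CPM in control cells, with a log2 change of 1.06 (SE 0.12, edgeR adjusted p = 2.5e-07). CPSF3, the endonuclease that cuts histone and polyadenylated mRNA, NCBP1, of the cap-binding complex, and CDK2, the kinase that activates NPAT, changed by 0.86, 0.76 and 0.67 on the log2 scale, all higher. SLBP averaged 40.7 ± 3.23 CPM in DDX4-null cells and 27.1 ± 2.66 CPM in control cells, with a log2 change of 0.59 (SE 0.11, edgeR adjusted p = 6.8e-05). NPAT was lower, with a log2 change of -0.36 (SE 0.12, edgeR adjusted p = 0.0114), and this call was lost on centring by chromosome, at an edgeR adjusted p of 0.53. SLBP and NPAT were named after their values were seen. In tumors edgeR called 0 of the 22 in either direction, against 2.09% of all genes tested. Of the 22, 4 had an unadjusted p under 0.05 there, all lower, and DESeq2 called 1 lower. CSTF2, a cleavage factor, had the smallest p there, with a log2 change of -0.34 (SE 0.09, edgeR adjusted p = 0.0772).

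Genes of nuclear poly(A) addition and alternative mRNA ends were also called at about the share of all genes. Of 14 tested, 6 rose and 4 fell in DDX4-null cells, against 67.3% of all genes called in either direction, and the median log2 change was 0.20 in cells and 0.03 in tumors. The 4 with the smallest p were CPSF4 at -1.13 and PCF11 at -0.63, both parts of the cleavage machinery, FIP1L1, another such part, at 0.76, and PABPN1, the nuclear poly(A) binding protein, at -0.69 on the log2 scale. Centring by chromosome gave -0.41 for CPSF4 (edgeR adjusted p = 0.00148), and the call of PABPN1 was lost there, at an edgeR adjusted p of 0.0552. In tumors edgeR called 0 of 14, against 2.09% of all genes tested. Of the 14, 3 had an unadjusted p under 0.05 there, all higher, and DESeq2 called 1 higher. PABPN1 had the smallest p there, with a log2 change of 0.37 (SE 0.10, edgeR adjusted p = 0.0721).

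Histones made outside S phase, which have polyadenylated mRNA, were called near the share of all genes too. Of 12 tested, 4 rose and 3 fell in DDX4-null cells, against 35.0% higher and 32.3% lower over all genes, and the median log2 change was 0.15 in cells and -0.005 in tumors. MACROH2A2, a macroH2A variant, averaged 108 ± 10.3 CPM in DDX4-null cells and 35.8 ± 2.84 CPM in control cells, with a log2 change of 1.59 (SE 0.10, edgeR adjusted p = 5.9e-11). CENPA, the centromeric H3, changed by 0.88 on the log2 scale. H2AZ2, an H2A.Z gene, changed by -0.94 and lost its call on centring by chromosome, at an edgeR adjusted p of 0.0785. In tumors edgeR called 0 of 12, against 2.09% of all genes tested. Of the 12, 1 had an unadjusted p under 0.05 there, higher, and DESeq2 called 0. The smallest p there was that of H3-3A, which encodes H3.3, with a log2 change of 0.31 (SE 0.11, edgeR adjusted p = 0.148).

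Histone chaperones carry new histones to DNA. Of 23 tested, 11 rose and 4 fell in DDX4-null cells, against 35.0% higher and 32.3% lower over all genes, or 67.3% in all, and the median log2 change was 0.17 in cells and -0.14 in tumors. CHAF1A and CHAF1B, subunits of the assembly factor CAF-1, averaged 41.8 ± 4.63 and 31.1 ± 3.07 CPM in DDX4-null cells, against 14.1 ± 0.274 and 10.2 ± 1.31 CPM in control cells. Their log2 changes were 1.57 (SE 0.11, edgeR adjusted p = 1.9e-10) and 1.61 (SE 0.12, edgeR adjusted p = 6.6e-10). MCM2, which also binds histones at the fork, and MMS22L, a replication repair factor, changed by 1.13 and 1.20 on the log2 scale. In tumors edgeR called 0 of 23, against 2.09% of all genes tested. Unadjusted p under 0.05 gave 1 higher and 7 lower there, and DESeq2 called 0 higher and 1 lower. CHAF1A had the smallest p there, with a log2 change of -0.38 (SE 0.11, edgeR adjusted p = 0.0914).

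Promoters are shown because most members tested moved together in culture, and H2AC25 was among those that did not pass the test. RefSeq promoter windows of 300 bases, with 250 before and 50 after the gene start on build GRCh38.p14, matched 31 of the 33 members. The octamer ATTTGCAT bound by POU2F1, the CCAAT box and the TATA box were searched on both strands. The CCAAT box, searched as those letters, was found in 28 of 31 members and 36.4% of 15843 protein-coding promoters. The TATA box, searched as TATAAA, was found in 21 of 31 and 9.63%, and the octamer in 13 of 31 and 1.70%. The member windows are not all separate. H2AC7 and H3C4 have the same window, and those of neighbours such as H2AC6 and H2BC4 overlap, so some sites count for both members. The windows below belong to H1-2 (chr6:26056421-26056720, minus strand), H2AC6 (chr6:26123922-26124221, plus strand) and H4C8 (chr6:26285485-26285784, minus strand), which fell in DDX4-null cells, and to H2AC25 (chr1:228457824-228458123, minus strand), which was not called. Capitals mark the matches on either strand, and none of the marked matches overlap.
H1-2: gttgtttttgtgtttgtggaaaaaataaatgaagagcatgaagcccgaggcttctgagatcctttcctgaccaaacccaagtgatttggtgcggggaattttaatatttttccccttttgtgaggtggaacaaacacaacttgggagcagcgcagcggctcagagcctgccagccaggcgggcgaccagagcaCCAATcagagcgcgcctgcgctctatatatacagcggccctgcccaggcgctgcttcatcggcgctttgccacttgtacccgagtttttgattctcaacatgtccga
H2AC6: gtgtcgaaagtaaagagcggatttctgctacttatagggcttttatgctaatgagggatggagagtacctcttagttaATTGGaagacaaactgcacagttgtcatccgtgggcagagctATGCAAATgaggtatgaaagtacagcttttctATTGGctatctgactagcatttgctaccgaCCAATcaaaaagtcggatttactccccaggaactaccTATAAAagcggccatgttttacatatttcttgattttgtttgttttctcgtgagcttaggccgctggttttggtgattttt
H4C8: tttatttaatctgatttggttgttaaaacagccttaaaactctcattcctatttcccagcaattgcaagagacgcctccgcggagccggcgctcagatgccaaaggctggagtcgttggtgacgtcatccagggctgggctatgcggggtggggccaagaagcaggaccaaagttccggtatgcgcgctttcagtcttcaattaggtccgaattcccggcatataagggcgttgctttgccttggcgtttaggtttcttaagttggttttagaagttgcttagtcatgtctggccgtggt
H2AC25: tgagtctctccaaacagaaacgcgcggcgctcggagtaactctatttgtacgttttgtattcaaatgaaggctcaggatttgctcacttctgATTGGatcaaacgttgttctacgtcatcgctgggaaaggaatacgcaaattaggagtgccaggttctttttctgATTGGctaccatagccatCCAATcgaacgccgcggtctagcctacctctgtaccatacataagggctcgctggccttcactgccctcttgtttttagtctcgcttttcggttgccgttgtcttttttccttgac
H2AC6 holds all 3 motifs, H1-2 only CCAAT, H2AC25 CCAAT in 3 places, and H4C8 none of the 3 in this window. A match or its absence is a description of these letters, and binding was not measured.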

How the data were processed

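DNase-treated RNA went into a TruSeq stranded mRNA library preparation, per the labels' protocols. Reads were handled with featureCounts 2.0.3, STAR 2.7.10a and Trimmomatic 0.39 on build GRCh37, per the submitters' processing notes. Neither source states the annotation, the strand and multi-mapping settings, or whether reads of the host were removed. The deposited values are raw counts per Ensembl gene, one column for each of 16 libraries. Identifiers without a current symbol held 0.267% to 0.370% of each library's counts and stayed in the totals and tests.

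Members and gene lists were chosen with earlier results of these data known. Counts were fitted with edgeR 4.0.16 in R 4.3.3, using filterByExpr, TMM scaling, the quasi-likelihood F test and Benjamini-Hochberg adjustment over all genes tested, with a threshold of 0.05. Only the groups compared entered each fit, except the interaction, which used all 16 libraries. SE is the log2 change divided by the square root of F, and 95% intervals use the fit's degrees of freedom. Levels are CPM on TMM-scaled library sizes. DDX4 was tested on log2(CPM + 0.5) by an exact permutation test. Named members averaged at least 1 CPM in some group, and genes named from the other lists were up to 4 per comparison with the smallest p at a mean of at least 1 CPM. Neighbours were the 3 with the smallest p. A gene that this rule would name is not reported here. The fits were tested on simulated data with 200 genes changed. A log2 change of 0.5 was recovered for 64.3% of such genes in cells, 33% in tumors and 5.16% in the interaction. For a log2 change of 1 this was 98.0%, 82.3% and 70%. False calls made up 8.62%, 4.27% and 2.60% of the calls in the same order. In the simulated data only those 200 genes differed, whereas 67.3% of the genes tested were called in cells and 52.8% in the interaction. The recovered and false shares therefore need not hold for the real comparisons. Alternatives were DESeq2 1.42.0, other scalings and filters, a replicate block, 1 model of all libraries, centring by chromosome and leaving out each library. Totals of 12204254 to 25443952 counts set the counting precision, and read counts without molecular identifiers make any floor a counting limit only. No coordinates on the files' build are printed, since no genome of that build was used.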

Additional observations from a re-analysis of the deposited data

Results flagged for a closer look

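The ratio of the histone sum to the S phase sum in control cells had 1 library apart from the rest, library 4 at 0.905, against 0.753, 0.768 and 0.778 in the other 3. Of 72 groups of 4 libraries examined in this way, 1 stood out, and chance alone marks about 1 in 20.

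The DDX4-null effect differed between tumors and culture, by the interaction test, for 12 of the members at 1 CPM or more, always more positive in tumors, where 26.0% of all genes tested were called higher and 26.8% lower. The differences on the log2 scale were 0.70 for H2AC11, 0.83 for H2BC5, 0.84 for H2BC12, 0.91 for H1-2, 0.95 for H2BC15, 1.00 for H2AC6, 1.04 for H1-4, 1.18 for H3C4, 1.33 for H2AC13, 1.33 for H2BC4, 1.74 for H4C8 and 2.09 for H1-3. Their edgeR adjusted p ran between 1.5e-06 for H4C8 and 0.0468 for H1-4. In each case the control cells were the group with the highest mean CPM.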

How the results depend on the processing

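The count of members lower in DDX4-null cells was 13 by the reported fit and 12 to 17 under the other settings. The count higher there was 0 under the other settings except centring by chromosome, which gave 1. In tumors, members called stayed at 0 in each direction under every setting run, while all genes called in tumors, 270, became 880 with DESeq2, 425 with the replicate block, 808 in the model of all 16 libraries, and 26 to 289 without 1 library. It was 134, 47 and 26 without control tumor 1, 2 and 3, and 129 without DDX4-null tumor 2 or 3. Between DDX4-null tumors and cells, members higher were 8 in the 16-library model and 2 to 6 without 1 library, namely 3 without DDX4-null cell library 1 or 3 and 2 without DDX4-null tumor 2 or 3. Members lower there were 1 after centring.

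Against the S phase sum in place of all counts, the mean log2 difference of the histone sum was -1.72 in cells, 0.43 in tumors and -1.91 between control tumors and control cells, against -0.84, 0.15 and -0.79 as reported. By library totals the last was -0.62. The DDX4 difference in tumors was -0.012 by library totals and 0.009 as reported.

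Single members that changed sign were not called in those comparisons. In tumors, H1-4 was -0.052 by library totals, -0.004 without a filter, -0.027 with the replicate block and -0.014 centred, and -0.24 to 0.13 without 1 library. H2BC5 ran from -0.017 to 0.21 without 1 library, H2BC4 from -0.093 to 0.26, H2AC11 from -0.067 to 0.22, H3C4 from -0.33 to 0.091 and H4C16 from -0.048 to 0.39. Between DDX4-null tumors and cells, centring gave 0.11 for H2BC5, 0.12 for H2AC11 and 0.027 for H2AC13. Without 1 library these were -0.20 to 0.041 for H2BC5 and -0.20 to 0.061 for H2AC11, and H3C4 ran from -0.036 to 0.39. For the interaction, H2AC25 was -0.13 by library totals, -0.094 centred and -0.048 to 0.14 without 1 library. H2BC11 was -0.097 by library totals and -0.096 to 0.22 without 1 library. The cause was not tested.

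Over named members, 1200 alternative values kept direction and call, 60 lost the call, 7 gained it and 36 changed sign. Replicate numbers are shared by the groups, and the correlation of same-numbered deviations ran from -0.16 to 0.27. These values cannot decide whether same-numbered libraries were handled together, since each group has only 4 libraries, and the labels do not say. With the replicate block, 13 members were lower in cells, 0 changed in tumors, 13 were lower in control tumors, 4 rose and 2 fell in DDX4-null tumors against cells, and 13 had an interaction. Depth limits the 18 members below 1 CPM.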

Other observations

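By the interaction test of edgeR, 26 of 29 S phase genes had a lower DDX4-null effect in tumors than in culture and 0 a higher one, with a median of -1.39 on the log2 scale. All 8 mitosis genes were lower in the same test, with a median of -1.75. At an unadjusted p under 0.05 and by DESeq2 the higher count was 0 in both lists. Of 22 histone transcription and processing factors, 2 were higher and 9 lower, where 26.0% of all genes were higher and 26.8% lower, or 52.8% in all.

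In DDX4-null tumors against DDX4-null cells, 7 S phase genes were higher and 11 lower, where 34.6% of all genes were higher and 35.3% lower, while all 8 mitosis genes were lower, with a median log2 change of -1.10. Control tumors against control cells had 5 mitosis genes higher and 0 lower by edgeR, 6 and 0 at an unadjusted p under 0.05, and 5 and 0 by DESeq2. Over all genes tested there, edgeR called 33.9% higher and 31.0% lower. The neighbours BTN3A1 and BTN3A3 in the chromosome 6 histone cluster had interaction values of 1.25 (SE 0.26, edgeR adjusted p = 0.00046) and 1.23 (SE 0.20, edgeR adjusted p = 4.1e-05), and their log2 changes in tumors were -0.09 and -0.04, neither called.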
